A study of Mus musculus with 8 samples.

Results

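The 8 genes Mgat1, Mgat2, Mgat3, Mgat4a, Mgat4b, Mgat5, Fut8 and St6gal1 encode the Golgi enzymes that set the branching, bisection, core fucosylation and alpha-2,6 sialylation of N-linked glycans. They were taken by symbol from the 27179 Entrez genes of the count matrix, in which each was present as 1 row. Mgat3 was chosen by its measured difference in counts between the lines, so its values are given as a description without a test. No cut-off on any measured value chose the other 7 genes.

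RNA-seq counts were analysed for 4 mouse mammary tumour cell lines, 67NR, 66cl4, 4T1 and 4T1.2. Each was sequenced as 2 biological replicates, which gave 8 libraries. The lines are related and descend from the same spontaneous BALB/c mammary tumour, 4T1.2 being a clone derived from 4T1. In the study, 66cl4 and 67NR stand for low metastatic potential compared with 4T1 and 4T1.2, and the pair of lines on each side was compared to learn what the tumour cells themselves contribute to their surroundings. The labels name no engineered allele and no treatment, and each group is 1 cell line, so a difference between groups is a difference between these lines. The libraries held 37159840 to 66269681 counts each, and the p-values below measure the spread between the 2 cultures of a line. Because whole cultures were sequenced, fewer cells expressing a gene and less RNA per cell cannot be told apart.

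N-glycans are built on a lipid carrier, transferred to nascent proteins in the endoplasmic reticulum, trimmed by glucosidases and mannosidases and then remodelled in the Golgi. Mgat1 adds the first N-acetylglucosamine (GlcNAc) that opens the way to hybrid and complex glycans, and Mgat2 adds the next on the opposite arm. Mgat4a and Mgat4b start a further branch on the first arm, and Mgat5 starts the beta-1,6 branch that is the preferred site for poly-N-acetyllactosamine and a ligand of galectins. Mgat3 adds the bisecting GlcNAc to the core mannose, after which Mgat4 and Mgat5 enzymes act poorly on the same glycan. Fut8 is the only enzyme of core fucosylation, and St6gal1 caps galactose with alpha-2,6-linked sialic acid. In mammary and other carcinomas, Mgat5 is known for its association with tumour growth and spread, and Mgat3 for opposing effects on the same glycans.

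In the mouse assembly GRCm38, which is the mm10 build named in the labels, the genes lay at 8 separate places. Mgat4a (Entrez 269181) spanned chr1:37439340-37541060 and Mgat5 (Entrez 107895) chr1:127204919-127488334. Mgat1 (Entrez 17308) lay at chr11:49244191-49263027, and Mgat4b (Entrez 103534) at chr11:50225335-50235103. On chromosome 12, Mgat2 (Entrez 217664) spanned chr12:69184158-69186773 and Fut8 (Entrez 53618) chr12:77237430-77475998. Mgat3 (Entrez 17309) lay at chr15:80173651-80215519 and St6gal1 (Entrez 20440) at chr16:23224729-23360350. No stretch of 75 bases in the GENCODE transcripts of Mgat1, Mgat2, Mgat3, Mgat4a or Mgat4b was found in a transcript of another gene. GENCODE models may differ from the Entrez gene models over which reads were counted. Such stretches made up 0.772% of Mgat5, 2.03% of Fut8 and 2.63% of St6gal1. On the opposite strand, Gm49383 overlapped 2.22% of the GENCODE exonic bases of Mgat2, Tmem163 1.48% of Mgat5, 9530018F02Rik 0.949% of Fut8 and BC106179 4.07% of St6gal1. Reads of such a pair cannot be told apart by strand, because the library kit does not mark it. How the counting treated reads that overlap both genes is not given in the sources used here.

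RefSeq windows of 300 bases around annotated start sites (250 bases before and 50 after, GRCm38.p6) were held for 6 of the 8 genes, 14 windows in all. Mgat3 and Mgat4b had no entry. A pair is shown here because it sets a start rich in CpG beside a start at the median of all windows, both from genes that were higher in 4T1 and 4T1.2. The St6gal1 window also lies within the span of the opposite-strand gene BC106179 that is described below. The bases before the annotated gene start are given 5′ to 3′ with each CpG (the letters CG, which read the same on both strands) in capitals. The Mgat2 stretch is chr12:69183908-69184157, plus strand, with 30 CpGs in 250 bases, and the St6gal1 stretch is chr16:23224490-23224728, plus strand, with 5 CpGs in 239 bases.
Mgat2: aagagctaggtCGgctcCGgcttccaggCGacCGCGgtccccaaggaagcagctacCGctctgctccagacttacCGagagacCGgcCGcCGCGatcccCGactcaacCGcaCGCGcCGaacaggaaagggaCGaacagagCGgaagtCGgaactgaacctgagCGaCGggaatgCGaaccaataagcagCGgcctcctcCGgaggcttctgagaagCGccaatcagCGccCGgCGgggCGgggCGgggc
St6gal1: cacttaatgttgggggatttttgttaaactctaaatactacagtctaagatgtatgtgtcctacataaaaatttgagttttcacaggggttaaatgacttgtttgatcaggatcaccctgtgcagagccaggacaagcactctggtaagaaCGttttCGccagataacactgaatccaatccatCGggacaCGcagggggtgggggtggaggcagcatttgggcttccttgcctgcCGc

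The whole Mgat2 window held 37 CpGs, and 5.58% of all 32851 windows in the RefSeq table held as many. The first St6gal1 window held 7 CpGs, which equals the median of the table, and the other St6gal1 windows held 10 and 6. The Fut8 window richest in CpG held 39 and that of Mgat4a held 35, against 22 for Mgat1 and 18 for Mgat5. These counts describe the sequence of the reference and were not measured in the lines.

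Mgat3 was abundant in 4T1.2 and 4T1 and close to absent in 66cl4 and 67NR. Raw counts were 7348 and 7233 for 4T1.2 and 6294 and 4720 for 4T1, but only 16 and 15 for 66cl4 and 16 and 28 for 67NR. In CPM (counts scaled to a common depth with TMM normalisation factors), the level was 128 ± 1.27 for 4T1.2, 102 ± 0.885 for 4T1, 0.343 ± 0.0131 for 66cl4 and 0.444 ± 0.0123 for 67NR (mean ± SD, n = 2 for this and all other CPM values). Every library of the first pair of lines was therefore far above every library of the second pair. The fitted difference between the mean of 4T1 and 4T1.2 and the mean of 66cl4 and 67NR was 8.18 on the log2 scale, a fold of 291. By absolute log2 difference it ranked 490 of the 13932 genes tested. The range of Mgat3 over the means of the 4 lines was 8.39 log2 units, where the median gene ranged over 0.959. Between 4T1.2 and 4T1 the fitted Mgat3 difference was 0.33, and between 66cl4 and 67NR it was -0.38, the latter resting on the few counts given above.

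**Figure D1:**
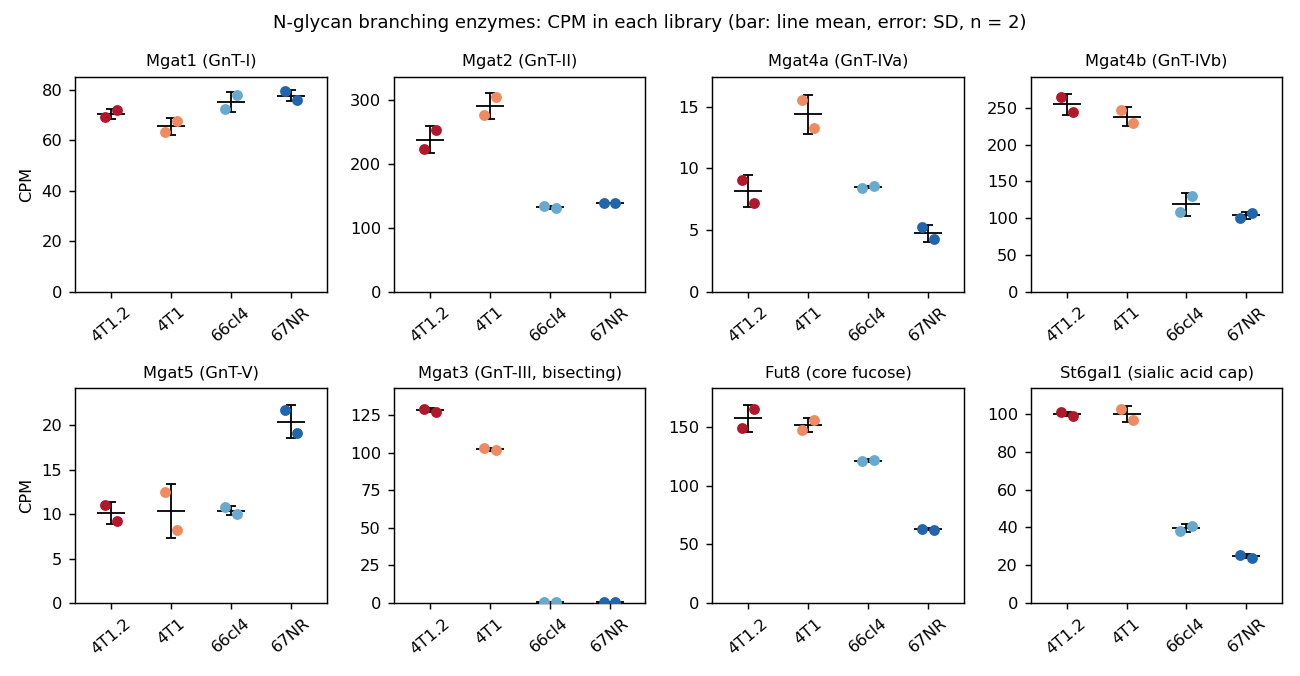
CPM of each of the 8 genes on a linear axis from 0, with 1 point for each library, the horizontal bar at the line mean and the error bar at 1 SD (n = 2). Mgat3 lies at 102 to 129 CPM in each library of 4T1.2 and 4T1 and under 1 CPM in the others, St6gal1 and Fut8 step down from 4T1 over 66cl4 to 67NR, and Mgat5 is highest in 67NR.

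In the comparison of 4T1 and 4T1.2 with 66cl4 and 67NR, 5 of the 7 other genes were higher and 2 were lower. The calls are those of the quasi-likelihood F-test of edgeR, with p-values adjusted over all genes by the method of Benjamini and Hochberg and a threshold of 0.05. The lines differed broadly, with 76.8% of all genes tested past the same threshold, 38.1% higher and 38.6% lower, so a call by itself said little about these enzymes. The median log2 difference of all genes tested was -0.01.

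Mgat1, the entry enzyme, was the most even of the 8. It stood at 69.0 and 71.9 CPM in 4T1.2, 63.1 and 67.8 CPM in 4T1, 72.5 and 78.1 CPM in 66cl4, and 79.3 and 76.0 CPM in 67NR. All 4 libraries of 4T1 and 4T1.2 were below all 4 of 66cl4 and 67NR, a separation seen in one direction or the other in 55.5% of the genes tested. The fitted log2 difference was -0.17 (SE 0.06), with an adjusted p of 0.0284 from edgeR. The call was lost when any of 6 libraries was left out. The adjusted p was 0.0968 without the first and 0.0517 without the second 4T1.2 library, 0.0644 without the first 4T1 library, 0.0879 without the second 66cl4 library, and 0.0979 and 0.056 without the first and the second 67NR library. The test for any difference among the 4 lines gave an adjusted p of 0.0886. The range of Mgat1 over the line means, 0.25 log2 units, ranked 13241 of the 13932 genes tested.

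Mgat2, which acts on the product of Mgat1, was higher in 4T1.2 and 4T1 than in 66cl4 and 67NR. It stood at 223 and 253 CPM in 4T1.2 and at 276 and 305 CPM in 4T1. In 66cl4 it was measured at 134 and 131 CPM and in 67NR at 139 and 139 CPM. No library of the first 2 lines overlapped those of the others, and the log2 difference was 0.96 (SE 0.07, adjusted p = 5.27e-07 from edgeR). Within each pair of lines the difference was not past the threshold, with an adjusted p of 0.0572 for 4T1.2 against 4T1 and 0.563 for 66cl4 against 67NR. The 4T1 libraries still lay above those of 4T1.2. The log2 difference of 4T1.2 against 4T1 had a 95% interval of -0.50 to -0.08.

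The 2 enzymes that start the same branch differed in level and in pattern. Mgat4b stood at 265 and 244 CPM in 4T1.2, at 248 and 229 CPM in 4T1, at 108 and 130 CPM in 66cl4 and at 101 and 107 CPM in 67NR. Like Mgat2 it was higher in 4T1.2 and 4T1, with a log2 difference of 1.15 (SE 0.08, adjusted p = 3.70e-07 from edgeR). Mgat4a was rarer, at 9.04 and 7.20 CPM in 4T1.2, 15.5 and 13.2 CPM in 4T1, 8.42 and 8.53 CPM in 66cl4 and 5.23 and 4.24 CPM in 67NR. It was highest in 4T1 and lowest in 67NR, whereas the 4T1.2 libraries lay on either side of those of 66cl4. The pooled log2 difference of Mgat4a was 0.78 (SE 0.11, adjusted p = 0.000145 from edgeR), but against 66cl4 alone it was 0.76 for 4T1 (adjusted p = 0.00168) and -0.06 for 4T1.2 (95% interval -0.42 to 0.30).

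Mgat5 was highest in 67NR, where Mgat4a was lowest. Its level was 11.01 and 9.23 CPM in 4T1.2, 12.5 and 8.18 CPM in 4T1, and 10.8 and 10.02 CPM in 66cl4. In 67NR it was measured at 21.7 and 19.1 CPM. The 67NR libraries were thus above all others, and those of the other 3 lines overlapped. The pooled log2 difference was -0.50 (SE 0.13, adjusted p = 0.00633 from edgeR). Against 67NR, Mgat5 was lower, with a log2 difference of -1.01 in 4T1.2 (adjusted p = 0.000957), -0.97 in 4T1 (adjusted p = 0.00123) and -0.97 in 66cl4 (adjusted p = 0.00249). Against 66cl4, the difference was -0.04 for 4T1.2 (95% interval -0.47 to 0.39) and 0.00 for 4T1 (95% interval -0.43 to 0.43).

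Fut8 fell in steps over the lines. It stood at 149.8 and 166 CPM in 4T1.2, 148 and 156 CPM in 4T1, 121 and 123 CPM in 66cl4, and 63.7 and 62.7 CPM in 67NR. The libraries of 4T1.2 and 4T1 overlapped, those of 66cl4 lay below both, and those of 67NR were lowest. Its pooled log2 difference was 0.82 (SE 0.06, adjusted p = 8.73e-07 from edgeR). On the log2 scale, 66cl4 was above 67NR by 0.95 (adjusted p = 2.27e-05) and 4T1 above 66cl4 by 0.32 (adjusted p = 0.00714), and the 2 steps were not tested against each other.

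St6gal1, the sialyltransferase, had the largest difference of the 7 tested genes. In 4T1.2 it was measured at 101 and 99.2 CPM, in 4T1 at 103 and 96.9 CPM, in 66cl4 at 38.3 and 41.0 CPM, and in 67NR at 25.5 and 24.0 CPM. The libraries of the first 2 lines overlapped, and the others were lower in turn without overlap. The pooled log2 difference was 1.67 (SE 0.06, adjusted p = 4.86e-09 from edgeR), a fold of 3.19. BC106179, the gene that overlaps the start of St6gal1 on the opposite strand, was also higher in 4T1 and 4T1.2, by 2.47 on the log2 scale (adjusted p = 4.02e-07). Its level was 4.08 ± 0.0798 CPM in 4T1.2, 3.71 ± 0.714 CPM in 4T1, 0.942 ± 0.0853 CPM in 66cl4 and 0.503 ± 0.134 CPM in 67NR. The share of reads exchanged between the overlapping genes was not tested.

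**Figure D2:**
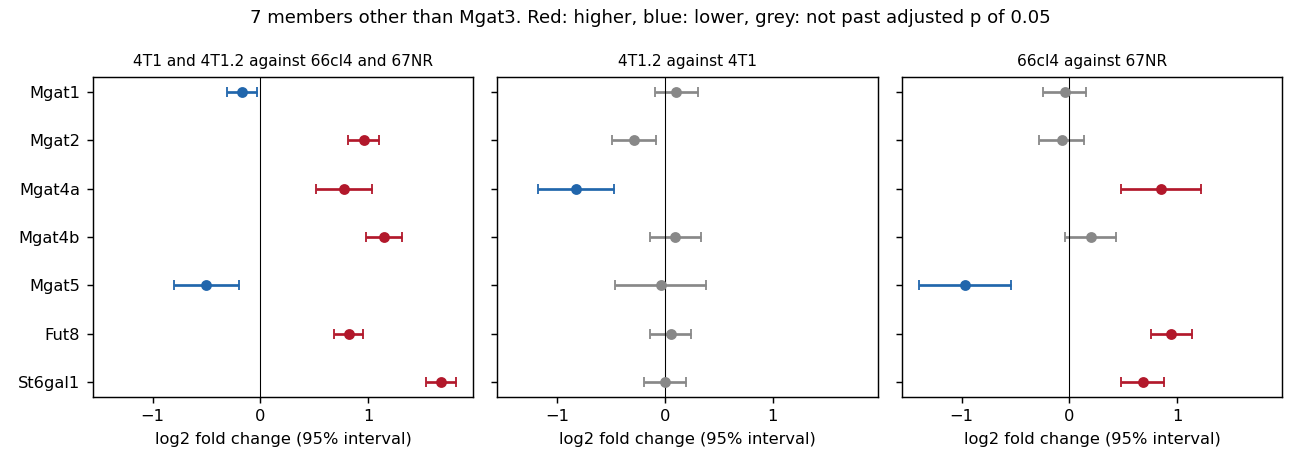
Log2 fold changes with 95% intervals for the 7 genes other than Mgat3 in 3 comparisons, on a common axis (red, higher; blue, lower; grey, not past an adjusted p of 0.05). In the left panel 5 genes lie above 0 and 2 below, in the middle panel Mgat4a alone is past the threshold, and in the right panel Mgat4a, Fut8 and St6gal1 are higher in 66cl4 while Mgat5 is lower.

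Between the closely related 4T1.2 and 4T1, 1 of the 7 genes passed the threshold, where 19.3% of all genes did, 9.36% being higher and 9.91% lower. Mgat4a was lower in 4T1.2, with a log2 difference of -0.82 (SE 0.16, adjusted p = 0.00552 from edgeR), and this call was lost without the second 4T1.2 library (-0.68, adjusted p = 0.0547). For Mgat2 the difference was -0.29 (SE 0.09, adjusted p = 0.0572), and it passed the threshold under 3 other tests and without the first 4T1 library. The difference of St6gal1 was 0.00 with a 95% interval of -0.19 to 0.19, and that of Fut8 was 0.05 with an interval of -0.14 to 0.24. Both intervals end well short of the difference of Mgat4a. Mgat5 was less precisely measured, at -0.04 with an interval of -0.47 to 0.39.

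Between 66cl4 and 67NR, 4 of the 7 genes passed the threshold, where 44.6% of all genes did. In 66cl4, Mgat4a was higher by 0.85 on the log2 scale (SE 0.17, adjusted p = 0.00251), Fut8 by 0.95 and St6gal1 by 0.68 (SE 0.09, adjusted p = 0.00022). Mgat5 was lower in 66cl4, as given above. The difference of Mgat2 was -0.07 with a 95% interval of -0.28 to 0.14, and that of Mgat1 was -0.05 with an interval of -0.24 to 0.15. For Mgat4b it was 0.20, with an interval of -0.04 to 0.44 and an adjusted p of 0.163, and without the first 66cl4 library it was 0.32 and past the threshold (adjusted p = 0.0498).

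Single lines of the 2 pairs were also compared, and these comparisons share libraries with each other and with the pooled one. Against 66cl4, 4 of the 7 genes passed in 4T1.2, all of them higher, where 68.9% of all genes passed and 34.3% were higher. Mgat4a joined them in 4T1, which made 5 genes higher, where 70.0% of all genes passed and 34.9% were higher. Against 67NR, 6 passed in 4T1.2, with 5 higher and 1 lower, where 67.8% of all genes passed, 33.7% higher and 34.1% lower. All 7 passed in 4T1 against 67NR, with 5 higher and 2 lower, where 68.2% of all genes passed, 33.8% higher and 34.3% lower. In the last of these comparisons Mgat1 was lower, with a log2 difference of -0.25 (adjusted p = 0.0295), and its adjusted p was 0.114 without the first 4T1 library, 0.149 without the first and 0.075 without the second 67NR library. Mgat2, Mgat4b, Fut8 and St6gal1 were higher in each of the 4. St6gal1 was higher by 1.33 on the log2 scale in either line against 66cl4, and against 67NR by 4.05-fold in 4T1.2 and 4.04-fold in 4T1. In the test for any difference among the 4 lines, 6 of the 7 genes passed, all but Mgat1, where 84.7% of all genes did.

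The enzymes were also compared with each other per length of transcript. On a scale corrected for depth and gene length (RPKM, with the gene lengths of the count table), Mgat4b and Mgat2 were the most abundant of the 8 in every line, with mean values of 105 and 91.1 in 4T1.2 and 42.8 and 53.2 in 67NR. Mgat4a and Mgat5 were the least abundant in 4T1.2 and 4T1, at 1.15 and 3.26 RPKM in 4T1.2 and at 2.04 and 3.34 RPKM in 4T1. Mgat3 followed Fut8 in those lines, with 27.5 RPKM in 4T1.2 and 21.9 RPKM in 4T1, and was the least abundant in 66cl4 and 67NR, with 0.0736 and 0.0952 RPKM. Summed over the 5 branching enzymes (Mgat1, Mgat2, Mgat4a, Mgat4b and Mgat5), the level ran from 220 to 236 RPKM in the 4 libraries of 4T1.2 and 4T1 and from 122 to 131 RPKM in the other 4. Mgat2 and Mgat4b made up most of these sums.

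Ratios within a library do not depend on the scaling between libraries. The ratio of Mgat3 to Mgat5, whose enzymes compete for the same acceptor, was 8.497 ± 0.972 in 4T1.2 and 6.86 ± 1.98 in 4T1 (RPKM over RPKM, mean ± SD, n = 2). In 66cl4 it was 0.0220 ± 0.000257 and in 67NR 0.0146 ± 0.00172. Mgat3 was therefore the more abundant transcript of the pair in the 4 libraries of 4T1.2 and 4T1, and Mgat5 in the 4 others, a description that follows from how Mgat3 was chosen. The ratio of Mgat4b to Mgat4a did not follow that division, with 91.9 ± 9.37 for 4T1.2, 48.3 ± 2.67 for 4T1, 40.8 ± 4.93 for 66cl4 and 64.6 ± 12.2 for 67NR. Mgat5 relative to Mgat1 was 0.154 ± 0.0236 in 4T1.2, 0.171 ± 0.0589 in 4T1 and 0.148 ± 0.0151 in 66cl4, which overlapped, and 0.280 ± 0.0169 in 67NR. St6gal1 relative to Mgat1 was 0.973 ± 0.0399 in 4T1.2 and 1.049 ± 0.0969 in 4T1, and 0.361 ± 0.00176 in 66cl4 and 0.218 ± 0.00285 in 67NR.

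**Figure D3:**
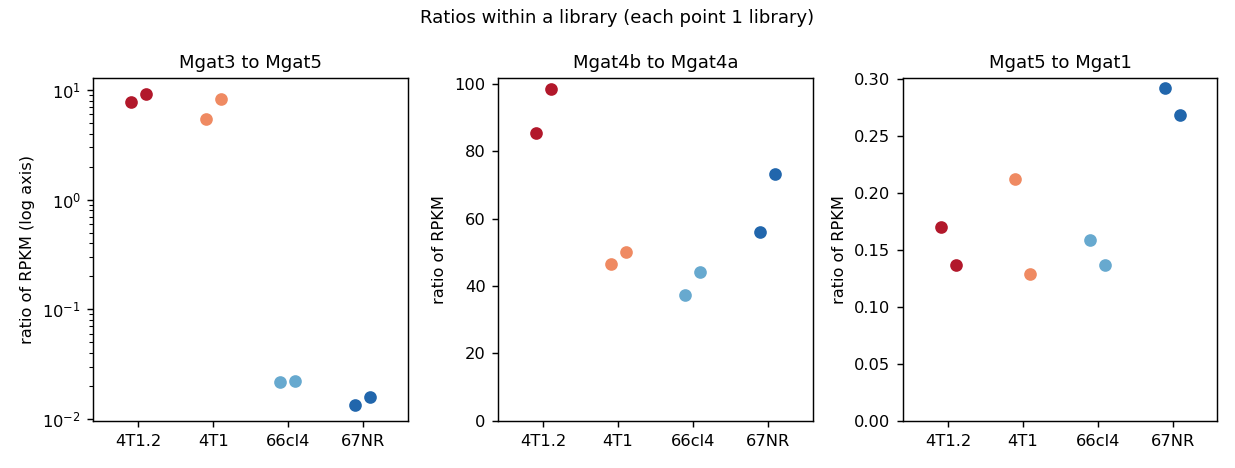
Ratio of RPKM values within each library (1 point a library) for Mgat3 to Mgat5 on a log axis, and for Mgat4b to Mgat4a and Mgat5 to Mgat1 on linear axes from 0. The first ratio is above 5 in the 4T1.2 and 4T1 libraries and under 0.03 in the others, the second is highest in 4T1.2, and the third is highest in 67NR.

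Other genes of glycosylation, galectins and glycoproteins that carry the glycans were read from 9 lists of 120 genes, of which 107 passed the filter on low counts. In the pooled comparison 50 of these were higher, 38 lower and 19 not past the threshold, beside 38.1% higher and 38.6% lower among all genes tested. Of the 14 genes for galactose and poly-N-acetyllactosamine extension, 11 were tested, 10 were higher and 1 was lower, with a median log2 difference of 2.41. This tally is partly fixed by the filter on low counts, since B4galt2, B4galt4 and B3gnt7 had under 10 counts in every library of 66cl4 and 67NR, and B3gnt8 in every library of 4T1.2 and 4T1. The 7 genes without these 4 were all higher, with a median of 2.22 that still includes B3gnt3, which had at most 20 counts in a library of 66cl4 or 67NR. B4galt2, a beta-1,4-galactosyltransferase, was measured at 67.0 ± 4.09 CPM in 4T1.2, 51.4 ± 3.31 CPM in 4T1, 0.0774 ± 0.0464 CPM in 66cl4 and 0.0979 ± 0.0926 CPM in 67NR, a log2 difference of 9.48. B4galt4, of the same family, had 377 to 518 counts in each 4T1.2 and 4T1 library and 0 counts in each library of 66cl4 and 67NR, and so was at least 126-fold higher, against a floor of 3 counts per library that covers counting error only. B3gnt3, which extends galactose with GlcNAc, was higher by 8.19, at 35.3 ± 0.343 CPM in 4T1.2, 75.8 ± 3.88 CPM in 4T1, 0.0775 ± 0.0151 CPM in 66cl4 and 0.407 ± 0.118 CPM in 67NR. The gene that was lower, B3gnt8, was near the limit of detection in every line, at 0.0215 to 0.21 CPM, and was named after its values were seen.

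The lists for steps before the branching enzymes had medians close to 0. Of the 32 genes of the lipid-linked precursor and the oligosaccharyltransferase, 13 were higher, 11 lower and 8 not past the threshold, with a median log2 difference of 0.00. Stt3a, a catalytic subunit of the oligosaccharyltransferase, was higher by 1.30 (adjusted p = 3.95e-08), at 631 ± 19.6 CPM in 4T1.2, 747 ± 40.8 CPM in 4T1, 293 ± 9.63 CPM in 66cl4 and 266 ± 12.9 CPM in 67NR. Mpdu1, needed for the use of dolichol-linked sugars, was higher by 1.201, and Dad1, a further subunit, by 1.02. Of 12 genes for glucosidases, mannosidases and the glucosyltransferases Uggt1 and Uggt2, 4 were higher, 6 lower and 2 not past the threshold, with a median of -0.15. The 4 higher genes were Uggt1, Uggt2, Man1c1 and Man2a2, so all 6 lower genes were glucosidases or mannosidases. Man1c1, a Golgi mannosidase, stood at 77.6 ± 4.19 CPM in 4T1.2, 69.3 ± 5.63 CPM in 4T1, 22.0 ± 0.464 CPM in 66cl4 and 2.35 ± 0.0451 CPM in 67NR, a log2 difference of 3.35 (adjusted p = 1.41e-10). Uggt1, the folding sensor that adds glucose back to misfolded glycoproteins, was higher by 1.73. Of the mannosidases that trim the product of Mgat1, Man2a2 was higher by 1.202, while Man2a1, named after its values were seen, was lower, with a log2 difference of -0.84 (adjusted p = 1.95e-05).

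The lists for sialic acid, fucose and sugar supply were mixed, and they are not limited to genes that act on N-glycans. Of 14 genes for sialyltransferases, sialidases and sialic acid supply, 13 were tested, 6 were higher, 5 lower and 2 not past the threshold, with a median log2 difference of 0.07. St3gal6 was higher by 5.19 (adjusted p = 1.63e-09), at 6.88 ± 0.0336 CPM in 4T1.2, 20.4 ± 0.316 CPM in 4T1, 0.543 ± 0.0197 CPM in 66cl4 and 0.170 ± 0.1253 CPM in 67NR. St3gal1 was higher by 2.36 and Neu3, a sialidase, was lower, with a log2 difference of -2.37. Of 12 genes for other fucosyltransferases and the supply of GDP-fucose, the donor of Fut8, 8 were tested, 3 were higher and 5 lower, with a median of -0.45. The log2 difference was -2.05 for Fut7, 1.59 for Fut11 and -0.92 for Fpgt. Fut7 was low throughout, with line means of 0.404 to 2.02 CPM. A list of 9 genes covered the supply of UDP-GlcNAc, the donor of all the Mgat enzymes, and also held Slc35a2, which carries another sugar. Of these 8 were tested, 3 were higher, 2 lower and 3 not past the threshold, with a median of 0.09. The 2 lower genes were Slc35a2 and Slc35a3, the latter with a log2 difference of -0.18. Pgm3 and Uap1l1 were higher by 1.02 and 0.74, and Slc35a2, the Golgi transporter of UDP-galactose, was lower, with a log2 difference of -0.81. Mgat4c, Mgat4d and Mgat5b, relatives of the branching enzymes, did not pass the filter on low counts, and their line means were at most 0.171 CPM.

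**Figure D4:**
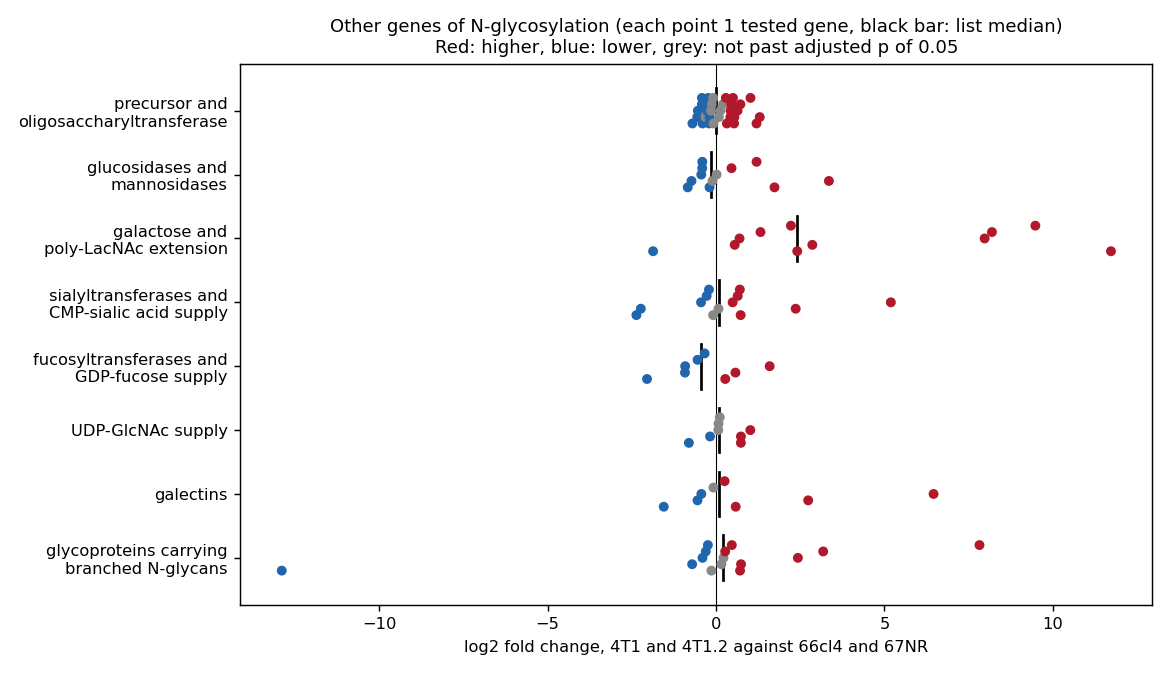
Log2 fold change of each tested gene of 8 lists in the comparison of 4T1 and 4T1.2 with 66cl4 and 67NR (red, higher; blue, lower; grey, not past an adjusted p of 0.05; black bar, list median). Points of the galactose and poly-N-acetyllactosamine list lie mostly to the right of 0 (10 of 11), but those beyond 7 there, and Cdh2 and Cdh1 in the last row, are genes with few or 0 counts in one pair of lines, whose fitted value depends on the prior count.

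The genes whose levels over the 8 libraries were most like those of Mgat3 were Shfl, Fbln1, Fbxo17, Cep126 and Nudt7. Likeness was the Euclidean distance between log2 CPM values (prior count of 2) centred on each gene's mean, and it ranged from 0.378 for Shfl to 0.607 for Nudt7. Fbln1, an extracellular matrix protein also encoded on chromosome 15, was measured at 35.04 ± 1.83 CPM in 4T1.2, 29.0 ± 0.935 CPM in 4T1, 0.0664 ± 0.0308 CPM in 66cl4 and 0.111 ± 0.00306 CPM in 67NR. Shfl had 431 to 751 counts in each library of 4T1.2 and 4T1 and 0 counts in the others. With a prior count of 0.5 none of these 5 genes was among the nearest 5, so the names depend on how low counts are treated. Among the other enzymes St6gal1 was nearest to Mgat3, at a distance of 9.09, and Mgat5 was farthest, at 12.2, a measure that mostly follows the size of the step. By Pearson's r over the 8 libraries, which come in pairs from the same line, Mgat4b came first (0.979) and Mgat1 last (-0.807), with St6gal1 at 0.951 and Mgat5 at -0.54.

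Of the tested genes beside Mgat3 on chromosome 15, Syngr1 was also close to absent in 66cl4 and 67NR. Syngr1, a synaptic vesicle protein gene that lies second before Mgat3, stood at 48.5 ± 2.86 CPM in 4T1.2, 40.6 ± 10.1 CPM in 4T1, 0.609 ± 0.168 CPM in 66cl4 and 0.292 ± 0.182 CPM in 67NR, a log2 difference of 6.64 (adjusted p = 1.14e-09 from edgeR). Tab1, which lies between them, was lower in 4T1 and 4T1.2, with a log2 difference of -0.39 (adjusted p = 0.000478). On the other side the difference was -0.004 for Mief1 (adjusted p = 0.966) and 0.19 for Atf4 (adjusted p = 0.0618). This set of neighbours was chosen after the values of Mgat3 were known.

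**Figure D5:**
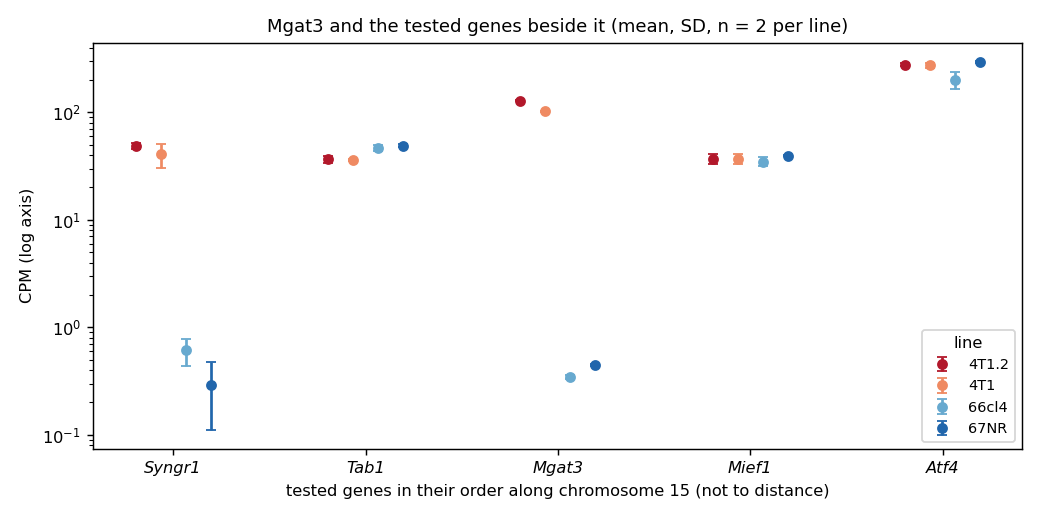
CPM on a log axis of Mgat3 and of the tested genes beside it, in their order along chromosome 15 and not to distance (points, line means; error bars, SD, n = 2). Syngr1 and Mgat3 lie above 40 CPM in 4T1.2 and 4T1 and under 1 CPM in 66cl4 and 67NR, whereas the means of Tab1, Mief1 and Atf4 lie above 30 CPM in all 4 lines.

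Marker genes moved with the same division of the lines. Of 12 epithelial genes 11 were tested, 10 were higher in 4T1 and 4T1.2, 0 were lower and 1 was not past the threshold, beside 38.1% higher and 38.6% lower among all genes tested. This tally is partly fixed by the filter on low counts. Epcam, Cdh1, Cldn3, Cldn4, Cldn7 and Krt19 had line means of at most 0.0994 CPM in 66cl4 and 67NR, and so passed it only through 4T1 and 4T1.2. The summed level of the 12 epithelial genes was 1890 to 3589 CPM in the 4T1.2 and 4T1 libraries and 469 to 721 CPM in the others. Of 13 mesenchymal genes 12 were tested, of which 3 were higher and 8 lower, with sums of 5657 to 7621 CPM and 3591 to 6061 CPM that were mostly Vim. The filter partly fixed this tally too. Cdh2, Snai2 and Col1a2 had line means of at most 0.0323 CPM in 4T1.2 and 4T1, and Snai1 of at most 0.0332 CPM in 66cl4 and 67NR. The 10 leucocyte genes summed to 4.17 to 5.84 CPM in 4T1.2 and 4T1 and to 19.5 to 26.5 CPM in 66cl4 and 67NR, the latter mostly Lyz2, with Cd3e and Adgre1 at 0 counts in every library and a mean of at most 0.0264 CPM for Ptprc. The 5 endothelial genes summed to 0.828 to 3.69 CPM and 0.334 to 0.441 CPM. The part of these marker differences in the levels of the N-glycan enzymes was not tested.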

How the data were processed

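Total RNA of the cell lines was prepared with Illumina's TruSeq RNA v2 kit, which does not mark strand. The authors aligned the reads to mm10 and counted them over Entrez genes with featureCounts, and the deposited values are raw counts per gene, without normalisation. The 8 files of single libraries held the same counts as the matrix. Symbols and coordinates came from a RefSeq table of GRCm38, in which 25275 IDs (93.0%) had an entry.

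The counts were filtered with filterByExpr, which left 15269 genes, and ribosomal, predicted and unannotated genes were removed, which left 13932, with all 8 enzymes among them. Lines were compared in R 4.3.3 with the quasi-likelihood F-test of edgeR 4.0.16 (limma 3.58.1 installed), TMM scaling, the legacy fit and a prior count of 0.125, with a mean for each line and 4 residual degrees of freedom. Adjusted p-values are Benjamini-Hochberg values over all genes tested, with a threshold of 0.05. Standard errors and 95% intervals were derived from the F statistic and are approximate. Replicates of a line correlated at 0.995 to 0.996 and differed by more than sampling noise.

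Genes named beyond the 8 enzymes are the 3 of each list with the largest log2 difference among called genes with no overlap between the 2 sets of 4 libraries, and the 5 nearest to Mgat3 in pattern. Overlapping genes, the tested neighbours of Mgat3, untested relatives of the enzymes, markers and single genes said to be so were named after their values were seen. The enzymes and lists were chosen with earlier results of these data known. The label of 66cl4 is spelt with a digit in some places, and the spelling of the design text was used. Alternatives were RLE scaling, no filter, no removal of genes, the newer fit, DESeq2 1.42.0, limma-voom, a replicate block and each library left out.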

Additional observations from a re-analysis of the deposited data

How the results depend on the processing

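The log2 differences of the 7 tested enzymes were recomputed under 15 alternatives, and of 735 values 706 kept their direction and their side of the threshold, 11 were no longer past it, 5 became past it and 13 changed sign. The pooled difference of Mgat3 ran from 8.15 to 8.20. The pooled calls of Mgat2, Mgat4a, Mgat4b, Mgat5, Fut8 and St6gal1 held under all 15, with a highest adjusted p of 0.0292 for Mgat5, whereas that of Mgat1 ranged from 0.0185 to 0.0979 and was 0.0525 with no filter on low counts. For 4T1.2 against 4T1, 1 enzyme passed, but 2 did with DESeq2, limma-voom and the replicate block, where Mgat2 joined Mgat4a (adjusted p = 0.0352, 0.0487 and 0.0453), and 0 to 2 did with a library left out. The count of all genes past the threshold there, 2684, ran from 1369 without the first and 1423 without the second 4T1.2 library to 3105, and that of 66cl4 against 67NR, 6213, from 4140 without the second 67NR library to 6938. The causes were not tested.

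The values that changed sign were not past the threshold in either setting, and all but 2 of these changes came with a library left out. Between 4T1.2 and 4T1, Mgat5 then ran from -0.31 to 0.31 (without the second and the first 4T1 library), Fut8 from -0.026 to 0.13 (without the second and the first 4T1.2 library) and St6gal1 from -0.041 to 0.045 (without the second and the first 4T1 library). Between 66cl4 and 67NR, Mgat1 ran from -0.100 to 0.0073 (without the second and the first 66cl4 library). For 4T1.2 against 66cl4, Mgat4a ran from -0.22 to 0.10 and Mgat5 from -0.16 to 0.092 (without the first and the second 4T1.2 library). For 4T1 against 66cl4, Mgat5 ran from -0.34 to 0.28 (without the first and the second 4T1 library), and it was -0.011 with limma-voom and -0.021 with the replicate block.

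The labels do not say that a replicate number marks a shared batch or day. Same-numbered deviations correlated at 0.682 between 4T1.2 and 4T1, 0.284 between 4T1 and 67NR and 0.169 between 4T1.2 and 67NR, but at -0.319, -0.157 and -0.0769 between these lines and 66cl4, so the numbers were not taken as pairs across the 4 lines. The replicate block moved no other call of the 7 tested enzymes. CPM on the total count in place of the effective library size moved 18 of 32 line means by over 1 SD. With 2 libraries a line, small differences are limited by the spread between cultures more than by depth, except for Mgat3 in 66cl4 and 67NR.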

Other observations

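Galectins, which bind the galactose-containing branches of N-glycans, were measured in the same libraries. Of 9 galectin genes 8 were tested in the comparison of 4T1 and 4T1.2 with 66cl4 and 67NR, 4 were higher, 3 lower and 1 not past the threshold, with a median log2 difference of 0.09. Among all genes tested 38.1% were higher and 38.6% lower, so the tally is close to that of all genes. Lgals1 was the most abundant, at 9228 ± 1264 CPM in 4T1.2, 10275 ± 2276 CPM in 4T1, 1408 ± 48.3 CPM in 66cl4 and 1520 ± 57.4 CPM in 67NR, a log2 difference of 2.74 (adjusted p = 2.18e-08 from edgeR). Lgals3, the galectin best known for binding Mgat5-branched glycans, was higher by 0.58 (adjusted p = 0.00201), at 307 ± 39.5 CPM in 4T1.2, 363 ± 100.1 CPM in 4T1, 225 ± 4.43 CPM in 66cl4 and 221 ± 35.5 CPM in 67NR. Lgals7 was higher by 6.46 and low throughout, with at most 4.20 CPM in a line mean. It had 0 to 13 counts in the libraries of 66cl4 and 67NR, so this fitted value depends on the prior count. Lgals7 passed the filter on low counts only through 4T1 and 4T1.2, so its place among the 4 higher galectins was fixed by the filter.

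Of 15 glycoproteins known to carry branched or bisected N-glycans, 7 were higher, 5 lower and 3 not past the threshold, with a median log2 difference of 0.22. Past the threshold were 76.8% of all genes tested, a share close to that of this list. The cadherins differed in opposite directions, which the filter on low counts fixed. Cdh1 passed it only through 4T1 and 4T1.2, and Cdh2 only through 66cl4 and 67NR. Of the 13 genes without them, 6 were higher, 4 lower and 3 not past the threshold, with a median of 0.22. Cdh1, epithelial cadherin, was higher by 7.82, a fitted value that rests on 2 to 7 counts in each library of 66cl4 and 67NR. It stood at 11.3 ± 0.384 CPM in 4T1.2, 38.4 ± 0.579 CPM in 4T1, 0.0994 ± 0.0776 CPM in 66cl4 and 0.0758 ± 0.0301 CPM in 67NR. Cdh2, neural cadherin, had 0 or 1 counts in each 4T1.2 and 4T1 library and 2975 to 5099 counts in each of the others, a ratio of 9701-fold with an exact 95% interval of 2685 to 80111 that covers counting error only. Egfr, the epidermal growth factor receptor, was higher by 3.18 at low levels, 2.41 ± 0.544 CPM in 4T1.2, 2.07 ± 0.0982 CPM in 4T1, 0.144 ± 0.0459 CPM in 66cl4 and 0.409 ± 0.0393 CPM in 67NR. Whether these proteins carried the glycans of the enzymes was not measured.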
